A study of Mus musculus with 2 samples.

Results

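Nuclear-encoded genes of oxidative phosphorylation were examined by active ribosome profiling of whole brain from control mouse pups. Members were the genes with a protein-coding transcript whose symbol begins with Nduf, Uqcr, Sdh followed by a, b, c or d, Cyc1, Cycs, Cox4, Cox5, Cox6, Cox7, Cox8 or Atp5. This gave 98 of the 45578 genes in the deposited table, of which 21874 were protein coding. Of the 98 members, 83 encode structural subunits, with 36 in complex I, 4 in complex II, 9 in complex III, 19 in complex IV and 15 in complex V. The others were cytochrome c (Cycs), the supercomplex factor Cox7a2l, Atp5s and 12 assembly factors. Ndufa4 and its paralog Ndufa4l2 carry complex I symbols but were counted in complex IV, where the protein resides.

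The animals were heterozygous for Smn and carried the human SMN2 transgene (genotype Smn+/-; SMN2tg/0), on an FVB background, and were taken at postnatal day 5 as controls of a spinal muscular atrophy line. The labels give 1 group in 2 biological replicates, so both libraries share genotype, age and treatment and no condition could be compared. RiboLace beads carry a puromycin analogue that retains ribosomes engaged in translation, and the fragments these ribosomes protected were selected at 25 to 35 nucleotides. The libraries differed in depth, with 343552 gene-level counts in replicate 1 and 120282 in replicate 2. Brain markers were present in both, with 1061 and 405 counts for Tubb3 of neurons, 380 and 110 for Apoe of glia, and 52 and 17 for Olig1 of the oligodendrocyte lineage. Markers of liver (Alb, Apoa1) and of muscle and heart (Ckm, Myl7) had 0 counts in both libraries, which allows up to 3 counts each, while Myh6 of heart had 3 and 0 counts. Acta1 of skeletal muscle had 70 and 22 counts, which are uncertain because its coding sequence closely resembles those of the other actins, and hemoglobin alpha (Hba-a1) had 343 and 121.

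Oxidative phosphorylation couples the oxidation of NADH and succinate to ATP synthesis in the inner mitochondrial membrane. Complex I takes electrons from NADH and complex II from succinate, complex III passes them to cytochrome c, complex IV reduces oxygen, and complex V makes ATP from the proton gradient. Complex II is encoded wholly in the nucleus, whereas the other complexes combine nuclear subunits, made on cytosolic ribosomes and imported, with subunits made on ribosomes inside the mitochondrion. Neurons depend on this pathway for most of their ATP, and reliance on it grows as the brain matures after birth.

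Together the 98 members held 5127 counts in replicate 1 and 1554 in replicate 2. These were 1.49% of gene counts (95% Wilson interval 1.45 to 1.53) and 1.29% (1.23 to 1.36), or 1.39% ± 0.142 (SD, n = 2). The intervals did not overlap. As a share of the counts on protein-coding genes the values were 1.83% and 1.77%, and protein-coding genes themselves held 81.4% and 73.1% of gene counts. Intervals cover counting error only, since PCR products without molecular identifiers are not independent molecules. Complex V took the largest share, 0.488% and 0.415%, followed by complex I with 0.424% and 0.376%. Complex IV held 0.296% and 0.277%, complex III 0.168% and 0.135%, and complex II 0.0716% and 0.0582%. This order was the same in both libraries, and it mixes levels with the number and length of the subunits.

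To compare genes of different length, counts were scaled to the effective library size (CPM) and divided by the coding length in kilobases, which is called footprint density here. A single count stood for 2.71 CPM in the deeper library, replicate 1, and for 8.93 in the other. No mRNA level was measured in these libraries, so the amount of an mRNA and the ribosomes per mRNA cannot be told apart in a density. In whole brain, fewer cells using a gene and a lower level per cell cannot be told apart either. Median density over the structural subunits was 279 CPM per kb in replicate 1 and 275 in replicate 2, against 62.0 and 59.6 over the 4392 protein-coding genes that reached the filter used for testing, 10 counts on average over the libraries. All 36, 4, 9 and 15 subunits of complexes I, II, III and V passed that filter, and so did 11 of 19 in complex IV. The 21 members under it were 8 paralogs of complex IV subunits known from other tissues or hypoxia, all 12 assembly factors and Atp5s.

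Subunits of complexes IV and V carried the highest densities and those of complexes I and II the lowest. The median was 235 CPM per kb in replicate 1 and 226 in replicate 2 for complex I, and 226 and 206 for complex II. It was 347 and 292 for complex III and 518 and 372 for complex V. For complex IV it was 524 and 543 over all 19 genes, and 871 and 869 over the 11 that are not tissue-restricted paralogs. The median of the ubiquitous complex IV subunits thus stood above that of every other complex in both libraries. Relative to complex I, complex II stood at 0.962-fold and 0.912-fold, and complex III at 1.48-fold and 1.29-fold. Complex V stood at 2.21-fold and 1.64-fold, and complex IV at 2.23-fold and 2.40-fold, or 3.71-fold and 3.84-fold without the restricted paralogs. Complexes III, IV and V were thus above complex I in both libraries, while complex II lay within 10% of it. Subunits are not replicates of a complex, so these folds carry no test. Of the 11 ubiquitous complex IV subunits, 9 lay above the highest complex I subunit, and 2 of the 36 complex I subunits lay above the lowest complex IV subunit.

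**Figure D1:**
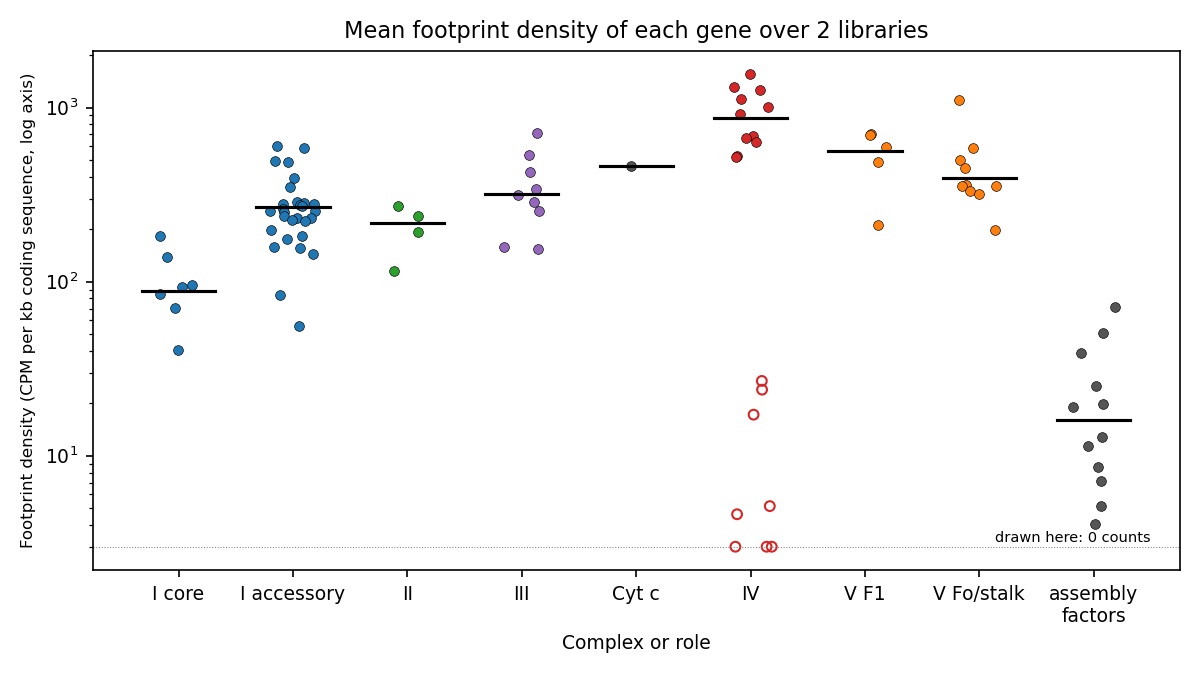
Mean footprint density over both libraries (CPM per kb of coding sequence, log axis) for each gene, grouped by complex or role. Filled points are genes, open points tissue-restricted paralogs of complex IV, points on the dotted line had 0 counts, and black bars are the mean of the 2 library medians without the restricted paralogs: complex IV stands highest at 870, the complex I core subunits at 88.2 and the assembly factors at 16.02. Groups are not matched for coding length.

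Complex I has a catalytic core of subunits conserved from bacteria, surrounded by accessory subunits. The 7 nuclear-encoded core subunits had a median density of 109 and 67.6 CPM per kb in the 2 libraries, below the 263 and 274 of the 29 accessory subunits. Core coding sequences were longer, with a median of 792 nucleotides against 414, so role and length cannot be told apart in this contrast. The accessory subunits of core-like length, Ndufa9, Ndufa10 and Ndufv3, had mean densities of 158, 84.2 and 55.2, within the core range of 40.4 to 184. Ndufv3 has this length only in its long isoform. On its short isoform the density was 215 and 283 CPM per kb, above that range. Among the core, Ndufs8, an iron-sulfur protein near the quinone site, was highest with 34 and 16 counts, or 144 and 224 CPM per kb. Next came the iron-sulfur protein Ndufv2 with 109 and 167 CPM per kb. Ndufs7, which holds the terminal iron-sulfur cluster, followed with 124 and 66.1. Its isoforms of equal coding length had from 5 to 8 counts in replicate 2. The isoform chosen therefore moves this value and the core median in replicate 2. The lowest was Ndufs1, the largest subunit, with 42 and 7 counts spread over 2184 nucleotides, or 52.1 and 28.6 CPM per kb. Ndufs8 thus exceeded Ndufs1 by 4.56-fold in mean density, and the order of Ndufs8, Ndufv2 and Ndufs7 was not the same in both libraries.

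The accessory subunits of complex I were led by small proteins of the membrane arm. Ndufa1 had 38 and 17 counts over 213 nucleotides, or 483 and 713 CPM per kb. Ndufc2 had 84 and 22 counts, or 627 and 541 CPM per kb. Ndufa11 had 71 and 26 counts, or 445 and 537 CPM per kb. These 3 overlapped between libraries, so their order among themselves is not set. Ndufa13, also known as GRIM-19, came close behind with 442 and 534 CPM per kb. Ndufs4, the subunit whose loss gives a widely used mouse model of Leigh syndrome, had 257 and 288 CPM per kb. Ndufab1, the mitochondrial acyl carrier protein, is present in 2 copies per complex and had 219 and 133 CPM per kb. Lowest of the accessory group was Ndufv3, a subunit near the NADH site, at 59.7 and 50.8 CPM per kb, a value that depended on the isoform used, as described with the isoforms.

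Complex II, succinate dehydrogenase, had the narrowest range, over the fewest genes. The SD of log2 density was 0.546 over its 4 genes and 0.555 over the 11 ubiquitous complex IV subunits, so the spreads were close. The membrane anchors of complex II, Sdhc and Sdhd, had 314 and 228, and 254 and 223, CPM per kb in replicates 1 and 2. The iron-sulfur subunit Sdhb had 62 and 18 counts, or 198 and 189 CPM per kb, and the flavoprotein Sdha had 80 and 27 counts, or 109 and 121. Sdhc exceeded Sdha by 2.36-fold in mean density, and the order of the 4 genes was the same in both libraries. All 4 assemble in equal copy number.

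In complex III the 3 highest were small subunits and the 2 lowest in mean density the large core proteins. Uqcrq, a membrane subunit that contacts cytochrome b, had 69 and 19 counts, or 751 and 681 CPM per kb. The small membrane subunit Uqcr11 had 491 and 574 CPM per kb and its neighbour Uqcr10 had 389 and 458. The hinge protein Uqcrh came next with 381 and 298. The catalytic subunits followed, with 335 and 292 CPM per kb for the Rieske iron-sulfur protein Uqcrfs1 and 305 and 265 for cytochrome c1 (Cyc1). The core proteins Uqcrc1 and Uqcrc2, which descend from a processing peptidase, had 167 and 148, and 131 and 177. Uqcrb, a small subunit of the quinone pocket, lay between the catalytic and core subunits in mean density, with 347 and 159. Uqcrq exceeded Uqcrc2 by 4.65-fold in mean density. The electron carrier cytochrome c, Cycs, had 45 and 19 counts, or 383 and 534 CPM per kb, within the range of complex III.

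Complex IV subunits made outside the mitochondrion surround the catalytic core, and the 11 ubiquitous ones spanned a 2.97-fold range. Cox8a, a small membrane subunit, had the highest density of all 98 members, with 115 and 38 counts over 210 nucleotides, or 1484 and 1616 CPM per kb. Ndufa4 had 117 and 38 counts, or 1273 and 1363 CPM per kb. Cox6b1, which lies on the intermembrane side and joins the dimer, had 108 and 41 counts, or 1121 and 1403. Cox7c, Cox7a2 and Cox6a1 followed at mean densities of 1113, 1002 and 918 CPM per kb. The lowest of the 11 were Cox4i1, through which ATP regulates the enzyme, at 505 and 543 CPM per kb and the zinc-binding subunit Cox5b at 563 and 481, close to the highest complex I subunits.

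Several complex IV subunits have a paralog known from muscle, testis, lung or hypoxic cells, and in these libraries the ubiquitous form held nearly every footprint. Cox4i1 had 95 and 31 counts against 0 and 2 for Cox4i2, the form of lung and hypoxia, a ratio of summed counts per kb of 64.1 (95% counting interval 17.4 to 535). Cox6a1 had 121 and 33 counts against 1 and 0 for Cox6a2 of heart and skeletal muscle, a ratio of 134 (23.6 to 5309). Cox7a2 had 81 and 32 counts against 1 and 1 for Cox7a1 of heart and skeletal muscle, a ratio of 54.5 (14.7 to 455). Each ratio rests on 1 or 2 counts in its denominator, so the intervals are wide. Cox6b1 stood 50.8-fold (17.1 to 249) above the testis form Cox6b2, which had 2 and 1 counts. Ndufa4 stood 164-fold (29.1 to 6532) above the hypoxia-induced Ndufa4l2, which had 1 and 0. The muscle form Cox8b, the testis form Cox8c and the testis form Cox7b2 were the 3 members with 0 counts in both libraries. Only upper limits can be given for these. Set against 3 counts over both libraries, Cox8a was at least 51.7-fold higher than Cox8b and at least 53.2-fold higher than Cox8c. Cox7b, with 47 and 20 counts, was at least 22.9-fold higher than Cox7b2. Cox7a2l, a relative of Cox7a2 that helps join complexes III and IV into supercomplexes, was an intermediate case with 23 and 6 counts, 6.26-fold (4.13 to 9.77) below Cox7a2.

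**Figure D2:**
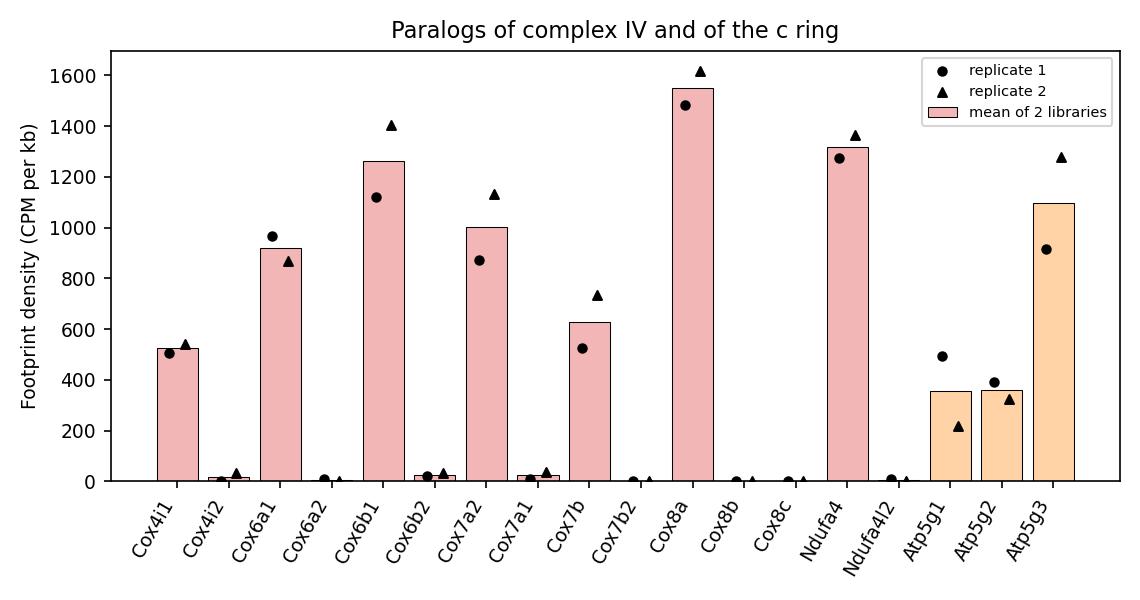
Footprint density (CPM per kb of coding sequence, linear axis from 0) of paralogs in complex IV (red) and of the genes for the c subunit of complex V (orange); bars are means over both libraries and symbols the single libraries. Each ubiquitous complex IV form stands beside paralogs near 0, whereas Atp5g1, Atp5g2 and Atp5g3 are all present.

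Complex V consists of the catalytic F1 head and the membrane-bound Fo part with its stalk, and its subunits enter the complex in unequal numbers. The catalytic subunit Atp5b had 397 and 130 counts, or 677 and 730 CPM per kb, and the alpha subunit Atp5a1 345 and 115 counts, or 563 and 618 CPM per kb. These were the highest counts of any member. Each is present in 3 copies per complex. The gamma subunit Atp5c1, the rotating shaft and a single copy, had 76 and 19 counts, or 230 and 190 CPM per kb, the lowest of F1. Relative to Atp5c1, the density of Atp5b was 2.94 in replicate 1 (95% counting interval 2.29 to 3.81) and 3.85 in replicate 2 (2.37 to 6.60). For Atp5a1 the ratio was 2.44 (1.90 to 3.17) and 3.26 (1.99 to 5.60). All 4 intervals held the copy ratio of 3 and lay above 1. So did those of the single-copy Atp5d, Atp5e and Atp5j2 in both libraries, and those of Atp5k and Atp5l in replicate 1. These intervals therefore do not tell 3-copy from single-copy subunits.

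The c subunit forms the rotor ring of 8 copies and is made from Atp5g1, Atp5g2 and Atp5g3, which encode the same mature protein behind different import sequences. Their summed density was 1804 and 1820 CPM per kb, or 7.83 and 9.59 times that of Atp5c1, beside 8 copies in the ring. Against Atp5c1, however, the 9 other single-copy subunits ranged from 0.932 for the stalk subunit Atp5h to 3.29 for the epsilon subunit Atp5e in mean ratio, with a median of 2.13. Among them, Atp5d of the F1 head stood at 2.33, the b subunit of the stalk, Atp5f1, at 1.53 and the oligomycin-sensitivity protein Atp5o at 1.69. With the median of the 10 single-copy subunits as the reference, the mean ratios were 1.48 for Atp5a1, 1.76 for Atp5b and 4.53 for the summed c genes. The summed c genes stood above beta and alpha, and these above the single-copy median. Within a library the choice of reference cannot change this order. The single-copy Atp5e exceeded the 3-copy Atp5a1 in mean ratio, with 3.29 beside 2.85 against Atp5c1 and 1.71 beside 1.48 against the median. The sizes for the multi-copy subunits came near the copy numbers against Atp5c1 and stayed below them against the median.

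**Figure D3:**
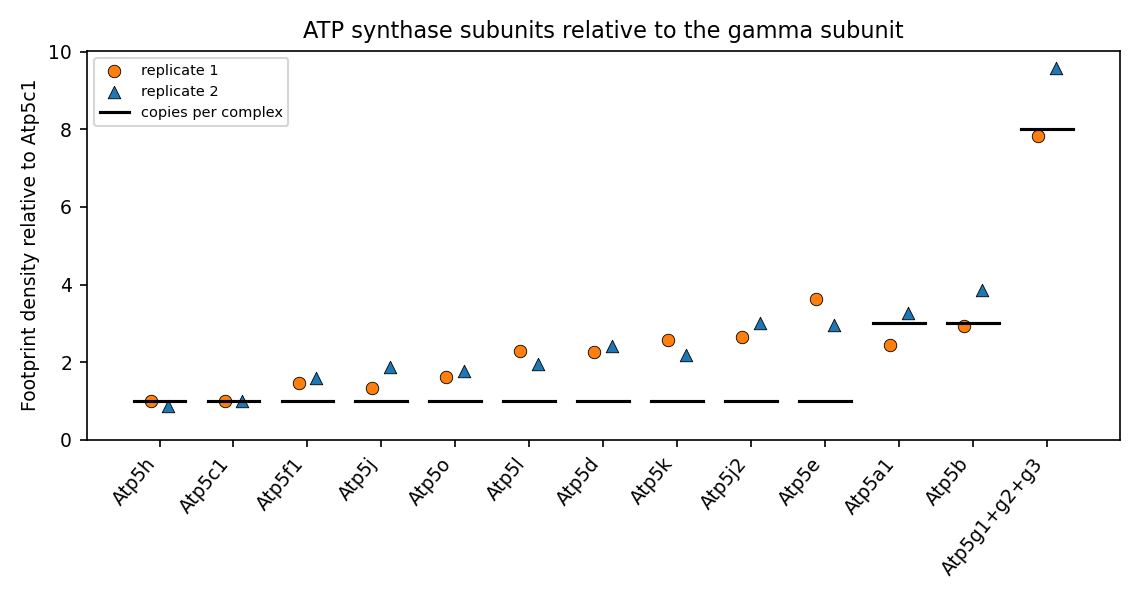
Footprint density of each complex V subunit relative to the gamma subunit Atp5c1 in each library (linear axis), with black bars at the copies per complex. The 3-copy subunits and the summed c-subunit genes lie near their bars, and 8 of the 9 other single-copy subunits lie above theirs in both libraries.

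Among the c-subunit genes, Atp5g3 had 144 and 61 counts, or 916 and 1279 CPM per kb, the highest of the Fo and stalk group. Atp5g1 had 75 and 10 counts, or 495 and 217 CPM per kb, and Atp5g2 had 64 and 16 counts, or 393 and 324. Atp5g3 therefore made up 50.8% and 70.3% of the summed density, Atp5g1 27.4% and 11.9%, and Atp5g2 21.8% and 17.8%. Atp5g3 led in both libraries, 2.33-fold (1.80 to 3.03) above Atp5g1 and 2.65-fold (2.04 to 3.48) above Atp5g2 over the summed counts. The small membrane subunits Atp5j2 and Atp5k, known as f and e, followed Atp5g3 with 609 and 569, and 590 and 413, CPM per kb. Atp5h was lowest with 41 and 9 counts, or 229 and 165. The c-subunit genes are near-identical over the mature protein and have relatives elsewhere in the genome, so how fragments were divided among them is uncertain.

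Subunits with longer coding sequences had lower densities. Across the 75 ubiquitous subunits Spearman's rho between mean density and coding length was -0.63, and it was -0.73 across the 36 subunits of complex I, -0.88 across 9 in complex III, -0.53 across 11 in complex IV and -0.19 across 15 in complex V. Across the 14289 protein-coding genes with a count and a coding length it was -0.39, and across the 4354 of them past the count filter, as all 75 subunits were, -0.78. The subunits' relation was thus stronger than the former and weaker than the latter. Density is count divided by coding length, so a filter on counts sets a higher density floor for shorter coding sequences. A negative relation is therefore partly built into the values past the filter, and the differences between these rho values were not tested. These values describe genes within the same 2 libraries, and genes are not independent replicates. In complex V the long, multi-copy subunits Atp5a1 and Atp5b stood apart, with densities in the range of the short complex IV subunits. Coding length touches the comparison of complexes, since 9 of 11 ubiquitous complex IV subunits were shorter than 400 nucleotides against 14 of 36 in complex I. Below 400 nucleotides, the median was 271 and 291 CPM per kb for complex I, 389 and 458 for complex III, 590 and 413 for complex V, and 967 and 1134 for complex IV without restricted paralogs. From 400 nucleotides up, it was 147 and 168 for complex I, 226 and 206 for complex II, 236 and 221 for complex III, 444 and 329 for complex V and 606 in both libraries for the 2 of complex IV. The order of complexes III, IV and V over complex I held in both length classes, whereas complex II changed sides: among coding sequences of at least 400 nucleotides it stood 1.53-fold and 1.23-fold above complex I. Within length classes of protein-coding genes, 75 of 75 ubiquitous subunits lay above the median of the other genes, and 33 of 75 above their 90th percentile. These 75 had all passed the count filter, to which the other genes were not held. The 8 restricted paralogs, all under the filter, were left out. Their mean densities, from 0 to 26.9 CPM per kb, lay below the medians of their length classes.

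**Figure D4:**
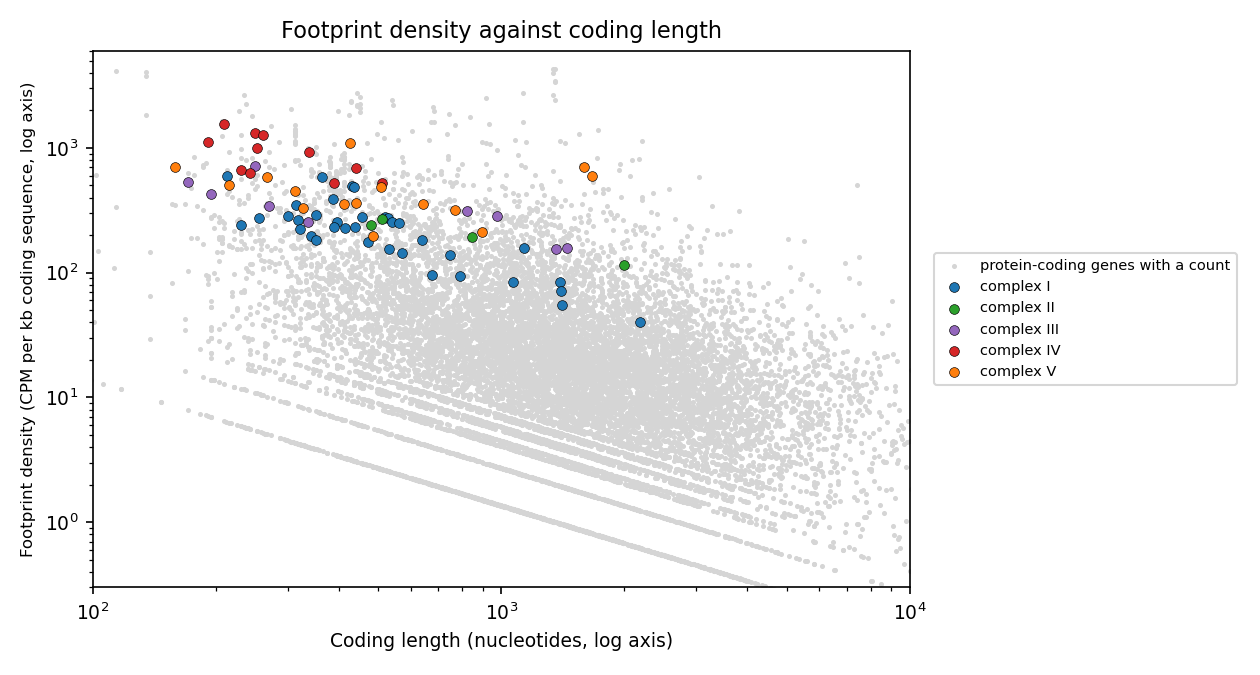
Mean footprint density (CPM per kb, log axis) against coding length (nucleotides, log axis) for the ubiquitous subunits, coloured by complex, over protein-coding genes with a count in grey; the grey diagonal lines are genes with few counts. Most complex IV points lie above the complex I points of similar length, with Cox5b at 522 below Ndufc2 at 584 as an exception, and Atp5a1 and Atp5b stand apart at the upper right among long coding sequences.

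Assembly factors, which insert cofactors and join subunits without staying in the complex, were far lower. None of the 12 passed the count filter, and their median density was 21.8 and 10.3 CPM per kb. Sdhaf4 and Sdhaf2, which act on the flavoprotein of complex II, had 10 and 2, and 11 and 1, counts. Ndufaf2 of complex I had 9 and 3 counts, and Ndufaf6 was lowest in density with 3 and 0. Of 34 further assembly and ancillary genes of the pathway outside the symbol rule, 9 passed the filter, 0 of these differed between the libraries by the test below, and Lyrm7 had 0 counts in both. Their highest densities were 785 and 668 CPM per kb for Atpif1, the inhibitor of ATP synthase, with 93 and 24 counts, and 612 and 605 for Usmg5, a small subunit of ATP synthase dimers, with 40 and 12. Cox14, a complex IV assembly factor, had 498 and 462 CPM per kb from 32 and 9 counts. Both inhibitor and dimer subunit thus lay in the range of the structural subunits of complex V.

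The 13 partner subunits encoded in mitochondrial DNA held 0.554% and 0.667% of gene counts. All 13 had a log2 ratio of replicate 2 over replicate 1 above 0. By the binomial test described below, 3 of the 13 differed (mt-Nd5, mt-Nd6 and mt-Co1), beside 4.14% of all genes tested and 0.956% of protein-coding genes. Of the 225 genes called by that test, 217 were higher in replicate 2 and 8 lower, so this direction was not particular to the partners. The ratios that set the partners against nuclear subunits were higher in replicate 2. Their median density over that of the nuclear subunits of the same complex was 1.01 and 1.40 for complex I, 1.74 and 2.70 for complex III, 0.667 and 0.891 for complex IV without restricted paralogs, and 0.292 and 0.935 for complex V. On the mitochondrial side these rested on 7, 1, 3 and 2 genes. For complex III this was mt-Cytb alone, and for complex V mt-Atp6 and mt-Atp8 with 48 and 32 counts together.

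Isoforms limit what a gene-level value means. Ndufv3 was the clearest case: its long isoform has a coding sequence of 1407 nucleotides and 31 and 8 counts, while its short isoform, with 315 nucleotides, had 25 and 10. The counts of the long isoform less those of the short were 6 in replicate 1 and -2 in replicate 2. Set over the 1092 additional coding nucleotides, this net of 4 counts was 3.30% of the density on the short isoform. The isoforms also differ in their 5′ untranslated regions, of 56 and 99 nucleotides, so the difference does not measure the additional nucleotides alone. With the short coding length the density of Ndufv3 was 215 and 283 CPM per kb, in the middle of the accessory subunits rather than at their lower end. Other members with such isoform pairs were Ndufv1, Ndufv2, Sdhc, Uqcrc1, Atp5g2, Atp5c1 and Atp5f1. Their short isoforms differ in untranslated regions as well, and the same percentage ran from 10.02% for Ndufv2 to 393% for Atp5f1. Neither for Ndufv3 nor for these genes can it be read as use of the additional exons.

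The members were then compared between the libraries gene by gene. A 2-sided exact binomial test compared the counts of each gene, with Benjamini-Hochberg adjustment over the 5436 genes past the count filter. By this test 0 of 77 members differed, beside 4.14% of all genes tested and 0.956% of the protein-coding genes. At an unadjusted p under 0.05 there were 2 members, or 2.60%, beside 9.60% of all genes and 5.62% of protein-coding genes. With edgeR's exact test at a preset coefficient of variation of 0.2, 0 members differed, beside 2.41% of all genes tested, and 0 had an unadjusted p under 0.05, beside 4.78%. With isoforms summed, which may count a fragment more than once, the binomial test called 3 of 79 members, beside 7.23% of genes. The test compares 2 libraries, not conditions. The log2 ratio of replicate 2 over replicate 1, on log2(CPM + 1), had a median of -0.08 over the members, with 33 above 0 and 44 below, beside 0.00 over all genes tested and -0.02 over protein-coding genes. Across the 77 members log density in the 2 libraries correlated with Pearson's r of 0.921, and across 4392 protein-coding genes with 0.924.

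**Figure D5:**
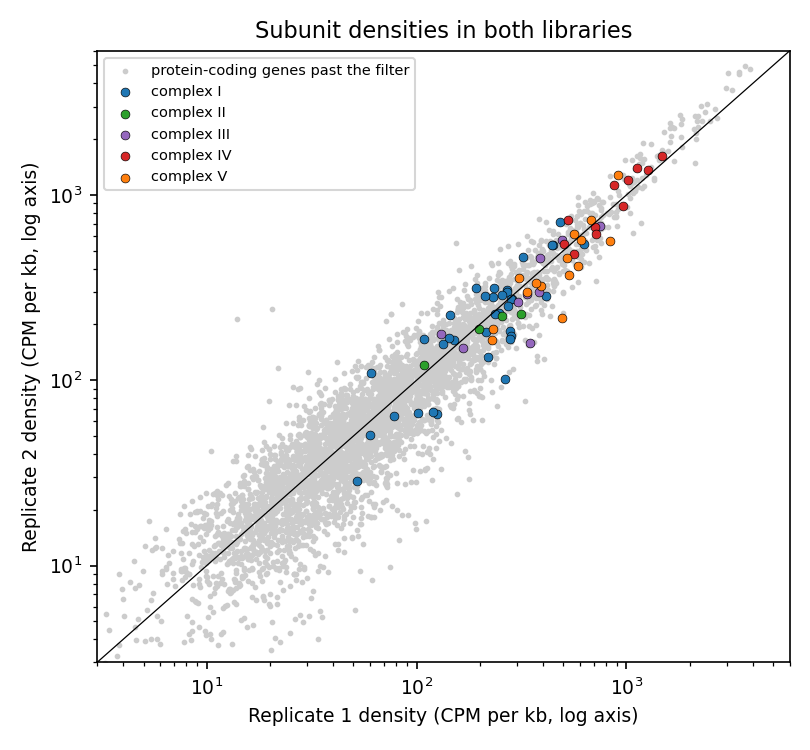
Footprint density in replicate 2 against replicate 1 (CPM per kb, both axes log) for the ubiquitous subunits, coloured by complex, over protein-coding genes past the count filter in grey, with the line of equality. Subunits scatter around the line as the other genes do, and Atp5g1 is the orange point farthest below it.

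The 2 members with an unadjusted p under 0.05 were both genes of the c subunit, and they went opposite ways. Atp5g1 was lower in replicate 2, with a log2 ratio of -1.18 ± 0.49 (counting SE, exact binomial p = 0.00996, adjusted p = 0.183). Atp5g3 was higher, at 0.48 ± 0.22 (exact binomial p = 0.0316, adjusted p = 0.400). Isoforms of Atp5g1 with the same coding length had from 53 to 75 counts in replicate 1 and from 10 to 18 in replicate 2, so the isoform chosen moves this ratio. With the mean over such isoforms, 0 members had an unadjusted p under 0.05. The other extreme ratios did not pass the unadjusted threshold. At the high end, Ndufa6, an accessory subunit that anchors the acyl carrier protein, had 0.71 ± 0.47 and Ndufs8 0.63 ± 0.44. At the low end, Ndufa5 of the peripheral arm had -1.11 ± 0.69 and Uqcrb -1.11 ± 0.63 from 43 and 6 counts.

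Promoters of respiratory genes are known to bind the nuclear respiratory factor NRF1, ETS-family factors such as GABP, and YY1, so RefSeq promoters of build GRCm38.p6, from 250 bases before to 50 after a transcription start, were searched for their motifs on both strands. Motifs were GCGC followed by any base and TGCGC for NRF1, CCGGAAG for ETS factors and AAGATGGC for YY1. The windows of 30 bases below, all upstream of a start and read 5′ to 3′ on the strand of the gene, show the match in capitals. They were chosen as members of high or contrasting density, with the NRF1 core in the form that reads the same on both strands and an ETS match on the opposite strand, and none holds more than 1 of the motifs.
Cox6a1, NRF1, chr5:115349101-115349130, minus strand: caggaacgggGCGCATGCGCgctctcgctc
Atp5k, NRF1, chr5:108434430-108434459, minus strand: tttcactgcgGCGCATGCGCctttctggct
Atp5g2, NRF1, chr15:102671070-102671099, minus strand: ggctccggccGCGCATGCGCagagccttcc
Ndufa11, NRF1, chr17:56717692-56717721, plus strand: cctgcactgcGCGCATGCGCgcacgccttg
Cox6b1, ETS, chr7:30626124-30626153, minus strand: tcctctcgcagCTTCCGGccagtcggaatt

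Of the 98 members 81 matched a promoter, 63 of them ubiquitous subunits. The promoters of a single chromosome were left out of the search, so members on that chromosome could not match. NRF1 motifs lay in 17 of the 63, or 27.0%, ETS motifs in 16, or 25.4%, and YY1 motifs in 10, or 15.9%. The same motifs lay in 4.60%, 8.86% and 2.75% of the 32851 single promoters searched, and in 13.8%, 19.1% and 5.62% of the 3383 tested protein-coding genes with a promoter. A gene was counted if any of its promoters held the motif, so only the shares over genes are like those of the subunits. By complex, NRF1 motifs lay in 6 of 14 genes of complex V, 7 of 32 of complex I, 1 of 9 of complex IV, 2 of 3 of complex II and 1 of 5 of complex III. ETS motifs lay in 5 of 14 genes of complex V, 4 of 32 of complex I, 3 of 9 of complex IV, 2 of 3 of complex II and 2 of 5 of complex III. YY1 motifs lay in 7 of 32 genes of complex I, 3 of 14 of complex V and in none of the 9, 3 and 5 of complexes IV, II and III. Median density was 254 CPM per kb for subunits with an NRF1 motif and 325 without, 366 and 279 for ETS, and 273 and 340 for YY1. At these numbers of genes the complexes cannot be ranked by motif. A match describes letters in the window and is no evidence of binding.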

How the data were processed

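The authors deposited 1 table of whole-number footprint counts per transcript and replicate, not normalised, with transcript, coding and untranslated lengths. Per the submitters' processing notes, Trimmomatic 0.36, Bowtie2 2.2.6, SAMtools and build GRCm38.p4 were used. How fragments were counted, which annotation release was used and whether ribosomal RNA was filtered are not given in the sources used here. Members and lists were chosen with earlier results of these data known.

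Each gene took the values of its transcript of highest summed count, and for density by its coding isoform with the highest count, which differed for 3 members (Ndufa5, Ndufs7 and Ndufa3). Effective library sizes came from edgeR 4.0.16 (TMM, factors 1.07 and 0.931; R 4.3.3). Tests used scipy 1.17.1, a filter of a mean of 10 counts, a pseudocount of 1 CPM and an adjusted threshold of 0.05. The binomial test was also run on data simulated with counting error alone, which cannot show how it behaves where libraries differ more. The binomial p-values cover counting error only; no spread between libraries enters them. The labels do not say whether a library holds 1 brain.

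Of 61 isoform pairs with equal coding length and untranslated regions within 60 nucleotides, 2 had identical counts in replicate 1 and 5 in replicate 2, with median differences of 8.45% and 13.8%. Such pairs can differ in untranslated stretches, so these differences do not show whether a fragment was counted for every transcript it matches. Counts of paralogs and pseudogenes, which share fragments with a member, are uncertain. Another 4 genes that match the symbols lack a coding transcript and were left out. Genes named are the 3 highest and the lowest by density in each role group, all members of the paralog sets, those with isoform pairs differing by 300 coding nucleotides and with at least 20 counts each, those with 0 counts, and the 3 highest and 3 lowest log2 ratios; 1 gene that this rule names is not reported here. Ndufa13, Ndufs4, Ndufab1, Uqcrh, Uqcrfs1, Cyc1, Uqcrc1, Cox7c, Cox5b, Atp5d and Atp5o were named beside these after their values were seen.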

Additional observations from a re-analysis of the deposited data

How the results depend on the processing

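The values in log2 were -0.10 for complex II over complex I, 0.47 for complex III, 1.21 for complex IV and 0.93 for complex V. Per whole transcript they were -0.38 for complex II, 0.60 for complex III and 1.10 for complex IV. With 45 nucleotides taken from the coding length, complex II gave -0.16, and with the mean over isoforms of equal coding length -0.036. Complex IV gave 1.92 both for subunits past the count filter and without the tissue-restricted paralogs. In length classes, chosen after the data were seen like the mean over isoforms, coding sequences of at least 400 nucleotides turned complex II to 0.46 and gave 1.74 for complex IV and 1.28 for complex V. Under 400 nucleotides complex IV gave 0.96 with its 7 restricted paralogs of that length, against medians without them of 967 and 1134 CPM per kb beside 271 and 291 for complex I, and complex II, which has no such subunit, no value. Over all members, the median density of 240 CPM per kb became 124 per whole transcript, 270 with 45 nucleotides taken off and 296 for members past the filter. The share of counts rose to 1.80% of protein-coding counts. Library totals in place of TMM moved the median log2 ratio of members to -0.29 and that of all genes to -0.20. The smallest adjusted p of the binomial test among members was then 0.0501, just above the threshold. Summing isoforms, which may count a fragment more than once, gave 3 members past the adjusted threshold where the other settings gave 0. These were Atp5g3, higher in replicate 2, and Ndufs1 and Ndufaf5, lower, while 7.23% of genes were called. Complexes III, IV and V stayed above complex I under every setting run. Leaving out a replicate leaves the value of the other library, as the report gives it, and could not be done for the comparison of the libraries; with 2 libraries it is no test of stability. No paired analysis was possible because the labels give a single group. At 8.93 CPM per count, genes with few counts in replicate 2 carry wide errors, and differences among neighbours in density were not resolved.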
